A study of Mus musculus with 28 samples.

Results

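The genes described here build and run the traffic of membrane vesicles in the cell: Rab GTPases with their partners and prenylating enzyme, Vps proteins, sorting nexins, the COPI coat and the clathrin adaptor complexes. They were chosen by gene symbol alone, from the probe sets that the platform annotation pairs with a single gene. This gave 99 of the 8251 genes so paired, measured by 130 of 12488 probe sets. Of these, 105 probe sets for 87 genes passed the filter on low signal, which asked that the signal exceed its array's median in 3 or more of 28 arrays and kept 7350 probe sets in all (59.2%). The rule uses the symbol and no measured value, though earlier results of these data were known when it was set.

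Transport between organelles runs on these proteins in sequence. Rab GTPases, which need a geranylgeranyl lipid to sit on a membrane, mark each compartment and recruit motors and tethers. Coats bend the membrane and collect cargo: COPI on the Golgi, AP-1 at the trans-Golgi network and endosomes, AP-2 at the plasma membrane, AP-3 on the route to lysosomes and synaptic vesicles. Retromer and sorting nexins pull cargo back out of endosomes, while ESCRT and HOPS complexes send it on to the lysosome. In neurons this machinery recycles synaptic vesicles and sets how many receptors stand at the surface.

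RNA from the whole brain was hybridised to 1 Affymetrix U74Av2 array per mouse, in 12 mice taken 1 hour after a seizure that intraperitoneal nicotine had evoked and in 16 untreated mice, all of strain C57BL/6J and of either sex. The alpha7 +/T mice were heterozygous for the L250T allele of the alpha7 nicotinic receptor subunit (5 seized mice, all of 8 weeks, and 5 untreated mice, 4 of 6 weeks and 1 of 8 weeks). The beta4 null mice lacked the beta4 subunit (4 seized mice of 7 to 8 weeks and 5 untreated mice of 6 to 9 weeks). The wild-type mice comprised 3 seized animals of 7 to 8 weeks and 6 untreated animals of 6 to 9 weeks, 3 of them of 6 weeks. Doses of nicotine differed between genotypes, so genotype and dose cannot be told apart among seized mice, and no group was injected without a seizure. Mice are numbered within a group by their order in the series, and replicates are animals.

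Several facts of the whole series touch the members. In 9 arrays the Gapdh control had a log2 ratio of its 3 prime over its 5 prime set between -0.48 and 0.096, against 1.13 to 2.57 in the other 19 arrays. These low-ratio arrays belonged to 3 seized and 2 untreated alpha7 +/T mice (untreated mice 3 and 4) and to 2 seized and 2 untreated beta4 null mice, and to no wild-type mouse. In alpha7 +/T mice age went with treatment, since all seized mice were of 8 weeks and 4 of 5 untreated mice of 6 weeks. Sample titles began with LT in all alpha7 +/T mice, with B4 in all beta4 null mice and with either in wild-type mice. Genotype and title prefix thus cannot be told apart between alpha7 +/T and beta4 null mice, and they go together in part against wild-type mice. No probe set was paired with Chrnb4, so the beta4 transcript could not be used to check the null label. Neuronal markers were bright and the liver markers Alb and Apoa1 summed to 11.3 to 44.2 signal units on every array, as a check of the labelled tissue. The skeletal muscle markers Acta1, Ckm and Myh4, also listed for an absent tissue, summed to 121 to 227 over 5 probe sets. In whole brain, fewer cells of a type and less RNA per cell cannot be told apart. All levels below are signal in the authors' scaled units, and the signal of one probe set is no measure of its transcript's level against that of another.

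The Rab family held 51 probe sets, of which 39 passed the filter. The 33 Rab GTPases with a probe set were Rab1a, Rab2a, Rab3a, Rab3b, Rab3d, Rab4a, Rab4b, Rab5a, Rab5b, Rab5c, Rab6a, Rab7, Rab8a, Rab8b, Rab9, Rab10, Rab11a, Rab11b, Rab12, Rab14, Rab17, Rab18, Rab20, Rab21, Rab23, Rab24, Rab25, Rab28, Rab31, Rab33a, Rab33b, Rab34 and Rab35. The name rule also took in the partners Rab3ip, Rab3il1, Rab5if and Rab11fip5 and the opposite-strand transcripts Rab10os and Rab26os. Both subunits of the Rab geranylgeranyl transferase, Rabggta and Rabggtb, were measured. The Vps genes (22 probe sets, 18 past the filter) were the retromer subunits Vps26a, Vps26b, Vps29 and Vps35, the related Vps26c, the HOPS subunits Vps16 and Vps41, the ESCRT members Vps28, Vps37a, Vps37b, Vps37c, Vps4a and Vps4b, the GARP tether Vps51, Vps52, Vps53 and Vps54, and Vps13c and Vps45. The 14 sorting nexins (20 probe sets, 17 past the filter) were Snx1, Snx2, Snx3, Snx4, Snx5, Snx6, Snx9, Snx10, Snx12, Snx13, Snx14, Snx17, Snx21 and Snx27. COPI was represented by Copa, Copb1, Copb2, Cope, Copg1, Copz1 and Copz2 (10 probe sets, 9 past the filter). The adaptor complexes (25 probe sets, 20 past the filter) were represented by Ap1b1, Ap1g1, Ap1g2, Ap1m1, Ap1s1, Ap1s2 and the AP-1 partner Ap1ar, by Ap2a1, Ap2a2, Ap2b1, Ap2m1 and Ap2s1, by Ap3b1, Ap3d1, Ap3m1, Ap3s1 and Ap3s2, and by Ap4s1.

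Signals over all mice are given for a few probe sets of each family, chosen for high or low readings, as a description of those readings and not of an order between genes. Rab6a, a Golgi Rab, gave 1642 to 3121, Rab14 800.3 to 1831 and Rab18 647.5 to 1620. Vps35, the scaffold of retromer, gave 558.2 to 1573, Vps28 of ESCRT-I 784 to 1212 and Vps29 of retromer 239 to 849. Snx3, a retromer cargo adaptor, gave 1741 to 2928, Snx10 253 to 758 and Snx6 285 to 543. Copa gave 692 to 1218, Copb2 (probe set 93341_r_at) 366 to 1115 and Cope 189 to 498. Ap2m1, the AP-2 subunit that binds tyrosine sorting signals, gave 877 to 3217 with probe set 93362_at, Ap1ar 544 to 1402 and Ap3d1 535 to 1102. Probe sets past the filter with low readings were those of Rab35 (8.82 to 89.2), Vps45 (42.1 to 115), Snx5 (104225_at, 28.2 to 74.9), Copz2 (22.4 to 92.9) and Ap1g1 (92288_at, 2.52 to 92.6). The SD of log2 signal within groups ran from 0.15 for Snx4 to 1.62 for that Ap1g1 probe set.

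The first comparison asked what a nicotine seizure did to these transcripts. Averaged over the 3 genotypes, no member passed the test: 0 of 105 probe sets at an adjusted p under 0.05 (limma, Benjamini-Hochberg over 7350), where 0.408% of all probe sets passed. At an unadjusted p under 0.05 there were 4 members (3.81%), against 8.64% of all probe sets. The median log2 difference of the members was 0.02, beside 0.01 over all probe sets, and 60 of 105 lay above 0 (53% of all did). By family the medians were 0.02 for Rab (39 probe sets), 0.03 for Vps (18), 0.01 for Snx (17), 0.05 for COPI (9) and 0.01 for the adaptors (20). The immediate early genes Fos, Fosb and Nr4a1 all passed in this average and in alpha7 +/T mice, where their log2 differences were 2.48 ± 0.36, 1.08 ± 0.23 and 1.49 ± 0.25 (SE, limma, adjusted p = 0.0004, 0.0124 and 0.0015). In beta4 null mice only Nr4a1 passed (1.47 ± 0.26, adjusted p = 0.0407), while Fos stood at 1.65 ± 0.38 (0.31) and Fosb at 0.97 ± 0.25 (0.53). In wild-type mice Fosb (1.54 ± 0.26, adjusted p = 0.015) and Nr4a1 (1.52 ± 0.27, 0.017) passed and Fos did not (1.82 ± 0.40, 0.17).

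**Figure D1:**
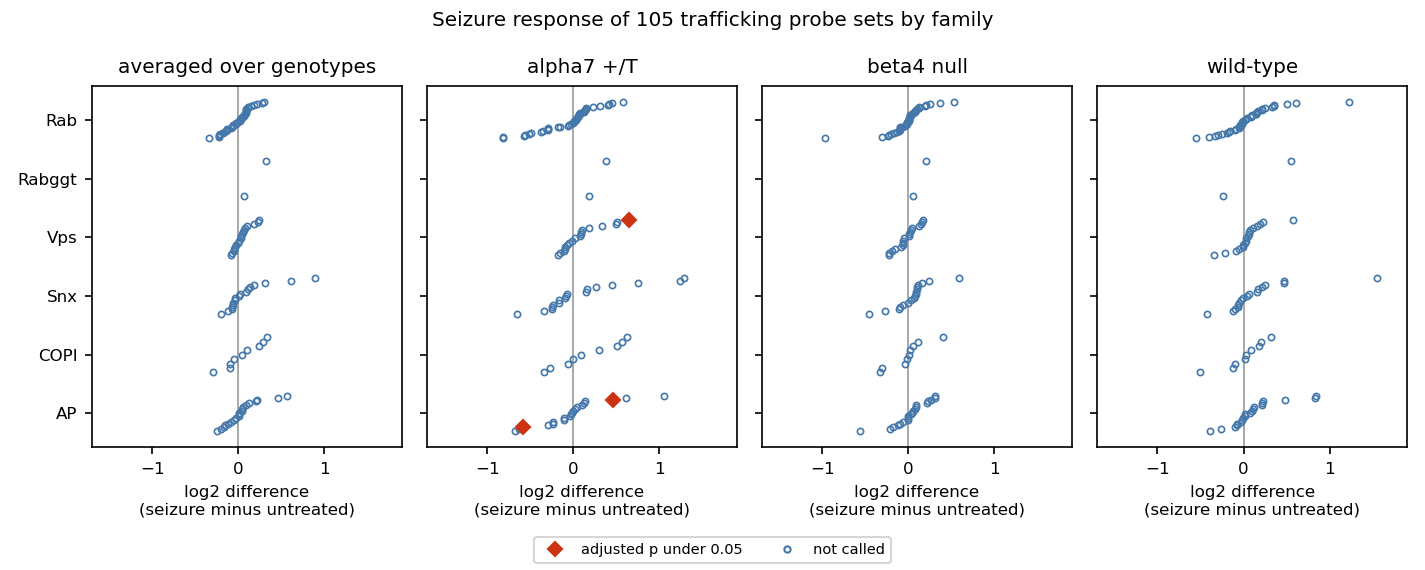
Log2 difference of each of the 105 member probe sets, seized minus untreated mice, by family (rows) in the average over genotypes and in each genotype (panels). Each circle is 1 probe set, and diamonds are the 3 that passed in alpha7 +/T mice (Ap1g1 and Vps35 above 0, Ap2a2 below), while no probe set passed in the other panels.

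The member with the smallest p in that average was Snx12, a small sorting nexin of a PX domain alone. Its probe set 102320_at gave 109.6, 112, 96.1, 113 and 47.3 in seized alpha7 +/T mice, against 13.5, 16.4, 85.6, 77.8 and 58.6 in untreated ones. In beta4 null mice it gave 84.9, 105, 70.6 and 86.2 after seizure, against 118, 130.4, 62.4, 122 and 58.8. In seized wild-type mice it gave 95.9, 50.0 and 118, against a lowest, median and highest of 16.1, 23.1 and 58.8 in untreated wild-type mice. The seized and untreated ranges overlapped in all 3 genotypes, and the beta4 null mice were high with or without a seizure. The average log2 difference was 0.89 ± 0.28 (SE, limma, adjusted p = 0.24), made of 1.24 ± 0.45, -0.11 ± 0.48 and 1.55 ± 0.50 in alpha7 +/T, beta4 null and wild-type mice. Array class moved with these values: 102320_at was 0.85 ± 0.28 higher in low-ratio than in high-ratio arrays of the same group (log2, limma, adjusted p = 0.0136), and its 2 highest untreated alpha7 +/T values came from low-ratio arrays. The other Snx12 probe set, 102319_at, differed by 1.47 between the classes and gave 96.7, 120, 91.3, 23.6 and 39.3 in seized alpha7 +/T mice, of which the first 3 were low-ratio arrays.

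The next members in the average were Ap1g1 (log2 0.22 ± 0.08, adjusted p = 0.37), Rab33b (103062_at, 0.21 ± 0.09, 0.51) and Vps35 (0.24 ± 0.11, 0.54), each by limma with its SE. Within the families, Rab11b (0.15), Copz1 (0.33), Copb2 (0.24), Vps26a (0.23), Vps53 (0.11), Snx2 (96333_g_at, 0.61), Snx10 (0.18) and Rabggta (0.32) were above 0 and did not pass. Rab2a (-0.23), Ap1m1 (161439_f_at, -0.24), Ap3m1 (-0.20) and Copz2 (-0.29) were below 0 and did not pass. Wild-type mice gave 0 members of 105 after seizure, where 0.0544% of all probe sets passed, and 2 at an unadjusted p under 0.05 (4.24% of all). Beta4 null mice gave 0 as well, where 0.0136% of all passed, and 0 at an unadjusted p under 0.05 (1.74% of all). The interaction of seizure with genotype called 0 members (F test in limma), where 0.0272% of all passed, and 6 at an unadjusted p under 0.05 (7.66% of all), so no member was shown to respond differently between genotypes.

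In alpha7 +/T mice 3 members passed after seizure (2.86% of 105, where 2.8% of all probe sets passed): Ap1g1 and Vps35 rose (1.71% of all did) and Ap2a2 fell (1.09% of all did). At an unadjusted p under 0.05 there were 19 members, where 18.4% of all passed. The share called is near that of the whole array. Ap1g1 encodes the gamma subunit of AP-1, the adaptor that loads clathrin vesicles at the trans-Golgi network. Its probe set 103242_at gave 212, 230.3, 179, 170.4 and 166 in seized mice, against 119.9, 138, 130.4, 149 and 155 in untreated mice. The groups did not overlap, which held for 1 member and for 2.95% of all probe sets. The log2 difference was 0.46 ± 0.12 (SE, limma, adjusted p = 0.0412), beside 0.09 ± 0.13 in beta4 null mice (195, 198, 157 and 163 after seizure, against 172, 209, 156, 168 and 136) and 0.10 ± 0.14 in wild-type mice (149.9, 162 and 160.5, against 135, 147 and 159 as lowest, median and highest). In alpha7 +/T mice it was 0.30 (adjusted p = 0.34) in the high-ratio arrays alone and 0.56 (0.07) in the low-ratio arrays alone. Among mice of 7 weeks or older, where only 1 untreated alpha7 +/T mouse remained, it was 0.29. That mouse, of 8 weeks, had the highest untreated signal (155). The call was lost in 8 of 28 fits that left out 1 mouse.

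Vps35 gave 1183, 1101, 1063, 1423 and 1573 in seized alpha7 +/T mice, against 846, 852, 613, 558 and 1365 in untreated mice. The 4 untreated mice of 6 weeks lay below every seized mouse, and the untreated mouse of 8 weeks lay among the seized ones. The log2 difference was 0.64 ± 0.18 (SE, limma, adjusted p = 0.0467), but among mice of 7 weeks or older, where only that 1 untreated mouse remained, it was -0.12. The call was lost in 24 of 28 fits that left out 1 mouse. In wild-type mice Vps35 gave 1392, 1378 and 1393 after seizure, against 1071, 1236 and 1468 as lowest, median and highest in untreated mice, and in beta4 null mice 940.2, 886, 1212 and 1288, against 1018, 959, 1307, 1296 and 1057. Neither of these comparisons passed (log2 0.15 ± 0.20 and -0.07 ± 0.19). The other retromer subunits in alpha7 +/T mice were above 0 and did not pass: Vps26a 0.51 ± 0.25, Vps29 0.33 ± 0.21 and Vps26b 0.09 ± 0.19 (adjusted p = 0.28, 0.42 and 0.87, limma).

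Ap2a2 encodes an alpha subunit of AP-2, which binds the lipids of the plasma membrane and starts clathrin endocytosis. Its probe set 100492_at gave 578, 632, 739, 611 and 576 in seized alpha7 +/T mice, against 871, 811, 1081, 1445 and 649 in untreated mice. All 4 untreated mice of 6 weeks lay above every seized mouse, and the untreated mouse of 8 weeks lay within the seized range. The log2 difference was -0.58 ± 0.16 (SE, limma, adjusted p = 0.0436), and it was -0.38 (adjusted p = 0.22) in the high-ratio arrays alone, -0.95 (0.01) in the low-ratio arrays alone and -0.05 among mice of 7 weeks or older. The second Ap2a2 probe set, 102835_at, gave -0.23 ± 0.27 (adjusted p = 0.72). The call was lost in 15 of 28 fits that left out 1 mouse. With age as a covariate none of the 3 passed (log2 0.40 and adjusted p = 0.35 for Ap1g1, 0.47 and 0.46 for Vps35, -0.54 and 0.33 for Ap2a2). In that fit 0 of 105 members passed, where 0.163% of all probe sets did. With array class as a covariate all 3 passed among 16 members (15.2%, where 13.3% of all passed). Age and array class moved with these results and their part was not tested.

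The start region of both adaptor genes that passed after seizure is shown, since early-response genes are often switched on through short elements there. Each run is 250 bases before to 50 bases after a RefSeq transcription start in build GRCm38.p6, written 5′ to 3′ on the gene's strand, in lower case, with any match to a searched motif in capitals.
Ap1g1 (chr8:109778333-109778632, plus strand): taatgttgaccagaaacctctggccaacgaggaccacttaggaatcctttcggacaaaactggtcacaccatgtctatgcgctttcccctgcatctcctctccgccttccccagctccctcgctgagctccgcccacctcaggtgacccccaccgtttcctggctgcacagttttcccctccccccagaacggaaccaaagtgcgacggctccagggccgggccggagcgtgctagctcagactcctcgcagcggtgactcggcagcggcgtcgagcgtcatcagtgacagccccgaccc
Ap2a2 (chr7:141561930-141562229, plus strand): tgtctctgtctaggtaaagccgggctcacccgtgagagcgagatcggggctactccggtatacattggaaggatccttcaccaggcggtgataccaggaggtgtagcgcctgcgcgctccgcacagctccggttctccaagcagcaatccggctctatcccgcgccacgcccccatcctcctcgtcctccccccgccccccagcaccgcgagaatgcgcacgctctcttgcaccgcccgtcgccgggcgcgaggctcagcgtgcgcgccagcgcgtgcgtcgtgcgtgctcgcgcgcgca
Neither run held the cyclic AMP response element TGACGTCA, the Fos and Jun site TGANTCA or the core TCACGTGA of the element that TFEB binds in lysosomal genes, searched on both strands. No stretch can match more than 1 of these motifs. Both windows were rich in CpG, with 21 such pairs in Ap1g1 and 39 in Ap2a2, against a median of 7 over all 32851 promoter windows and 21.5 over the 102 windows of 85 member genes. Among member windows 4 of 102 held TGACGTCA (3.92%, 1.79% of all windows), in Ap2b1, Cope, Rab25 and Rab5a. TGANTCA stood in 5 of 102 (4.90%, 7.81% of all), in Ap1g2, Ap4s1, Rab34, Snx10 and Vps37c. TCACGTGA stood in 6 of 102 (5.88%, 0.974% of all), in Rab21, Rab24, Rab5a, Vps16 and Vps26a.

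Members with the most similar residuals were sought for each of the 3, over the 19 high-ratio arrays after subtraction of group means. For Ap1g1 they were Rabggtb (Pearson r = 0.68), Vps35 (0.57) and Snx14 (0.55). For Vps35 they were Rab9 (0.70), Rab33b (97058_f_at, 0.70) and a Vps26c probe set (162486_f_at, 0.65). For Ap2a2 they were Rab4b (0.78), Ap2a1 (0.67) and its own second probe set (0.65). These arrays share the age differences within groups, and the values are descriptive.

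The largest number of members differed between untreated alpha7 +/T and untreated wild-type mice. There 19 member probe sets for 18 genes passed (18.1%), where 16% of all probe sets passed, so the share is near that of the array, and 36 passed at an unadjusted p under 0.05 (34.3%, 35.1% of all). The 7 that were higher (6.67%, 7.73% of all) were both Ap2a2 probe sets, Ap1b1, Ap3s2, Rab4b, Rab25 and Rabggta. The 12 that were lower (11.4%, 8.29% of all) were Rabggtb, Rab12, Rab18, Rab26os, Snx2, Snx10, Snx14, Vps4b, Vps29, Vps35, Vps54 and Copb2. The higher members included 4 of 20 adaptor probe sets, 2 of them of Ap2a2, and no Vps, Snx or COPI probe set. The lower ones included 4 of 18 Vps and 3 of 17 Snx probe sets and no adaptor. Array class moved the same way. Those adaptor probe sets were higher in low-ratio arrays, by 0.25 (Ap1b1) to 0.85 (Ap2a2, 102835_at). Those Vps and Snx ones were lower, by -0.28 (Snx10) to -0.60 (Vps54), though for Ap3s2 and Snx2 the class difference did not pass. Centring each array on its median moved the median of all probe sets from 0.06 to -0.18 (log2), and 3 members were then higher (2.6% of all probe sets were) and 21 lower (17.1% of all). The comparison uses the same untreated alpha7 +/T mice as the seizure comparison above.

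**Figure D2:**
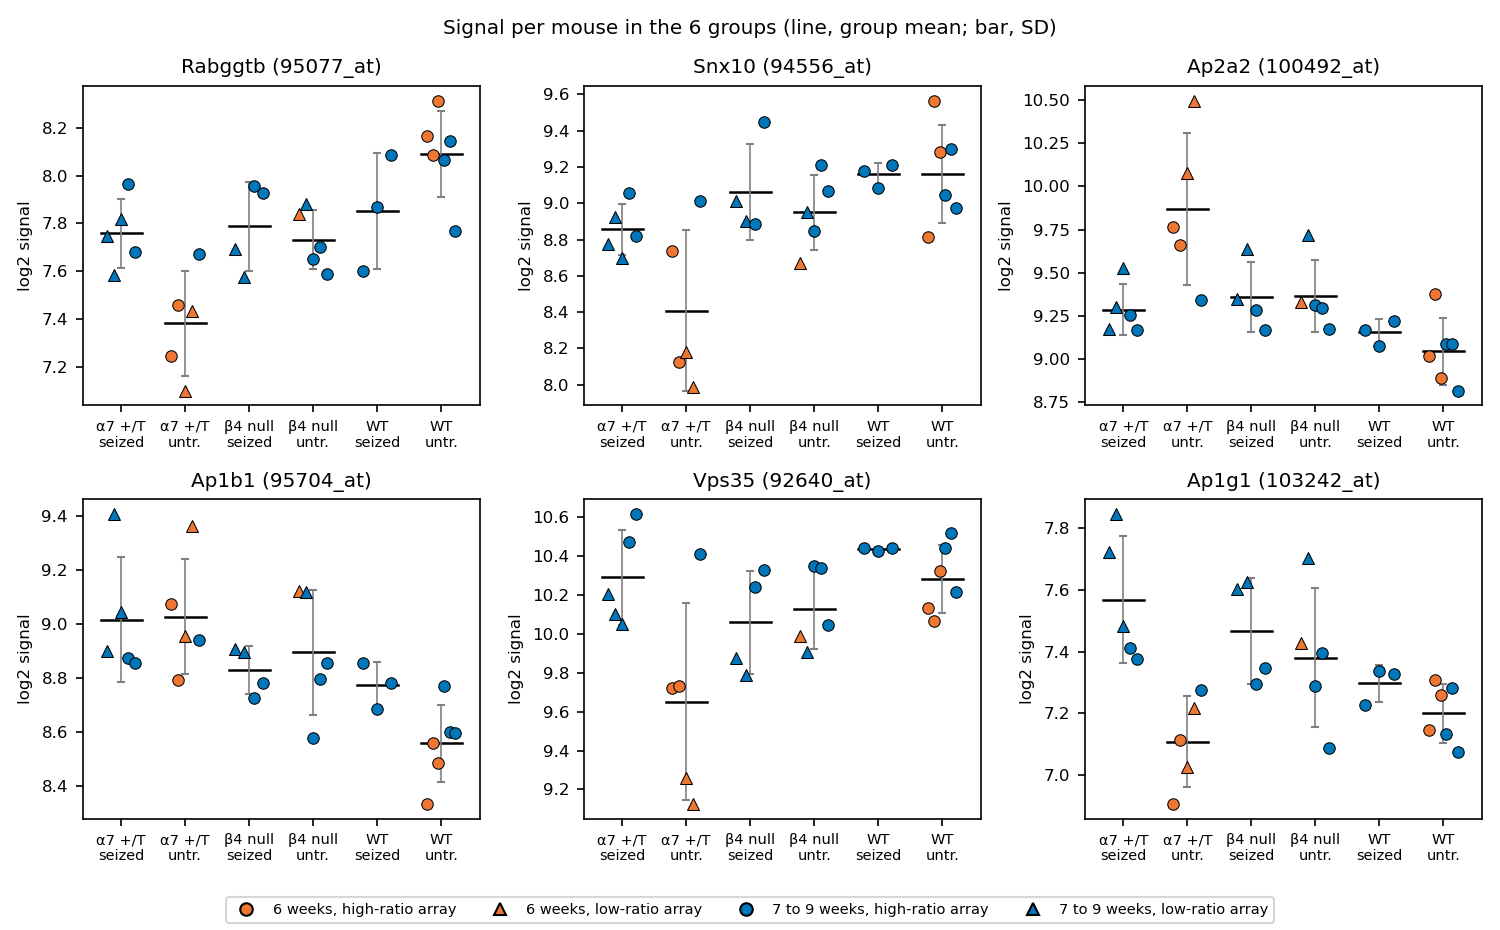
Log2 signal per mouse for 6 called probe sets in the 6 groups, with the group mean (line) and SD (bar). Orange points are mice of 6 weeks and blue ones older mice, and triangles are low-ratio arrays. The orange untreated alpha7 +/T mice lie outside the range of untreated wild-type mice for Rabggtb, Snx10, Ap2a2 and Vps35, and the blue untreated alpha7 +/T mouse lies nearer to that range or inside it. For Ap1b1 all 5 untreated alpha7 +/T mice, the blue one included, lie above that range.

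Rabggtb, the catalytic beta subunit of the enzyme that attaches the lipid anchor to Rab proteins, had the smallest p. Its signal was 152, 176, 137, 173 and 204 in untreated alpha7 +/T mice, against a lowest, median and highest of 218, 277 and 318 in untreated wild-type mice. The groups did not overlap, as for 2 members and 4.75% of all probe sets. The log2 difference was -0.71 ± 0.12 (SE, limma, adjusted p = 0.0025), a 1.63-fold lower level, and it kept its call in all 28 fits that left out 1 mouse. It was -0.63 in the high-ratio arrays alone (adjusted p = 0.07), -0.67 with array class as a covariate (0.003) -0.88 among the 7 untreated mice of 6 weeks with the title prefix LT (0.048), and -0.32 (1.00) once all 6-week mice were left out, which leaves a single mouse in the untreated alpha7 +/T group. Untreated beta4 null mice gave 229, 236, 201, 208 and 193, a log2 difference of -0.36 ± 0.12 from wild-type mice that did not pass (adjusted p = 0.36).

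The alpha subunit Rabggta went the other way. Its signal was 84.4, 84.1, 193, 193 and 67.6 in untreated alpha7 +/T mice, against 45.7, 59.9 and 76.4 as lowest, median and highest in wild-type mice. The 2 highest values came from the low-ratio arrays, and the log2 difference of 0.94 ± 0.32 (SE, limma, adjusted p = 0.0478) did not pass with array class as a covariate (0.51, adjusted p = 0.08). Its call was lost in 17 of 28 fits that left out 1 mouse.

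Ap2a2 was higher in untreated alpha7 +/T mice, at 871, 811, 1081, 1445 and 649 with probe set 100492_at, against 451, 531 and 664 as lowest, median and highest in wild-type mice. Only the mouse of 8 weeks lay within the wild-type range. The log2 difference was 0.82 ± 0.15 (SE, limma, adjusted p = 0.0044), and its call held in all 28 fits that left out 1 mouse, while it was 0.54 in the high-ratio arrays alone (0.07) and 0.34 among mice of 7 weeks or older. The second probe set gave 235, 238, 369, 289.8 and 141, against 99.8, 136 and 177, a log2 difference of 0.87 ± 0.26 (adjusted p = 0.03). All 6 AP-2 probe sets, 2 of them for Ap2a2 and 2 for Ap2m1, lay above 0, as did the median of all probe sets. Their median was 0.85, and 5 of 6 lay above 0 with a median of 0.61 after median centring. Array class moved with this group: 5 of the 6 were higher in low-ratio arrays, by 1.78 (Ap2b1), 1.27 (Ap2a1), 0.85 and 0.34 (Ap2a2, 102835_at and 100492_at) and 0.52 (Ap2m1, 93362_at), and with class as a covariate Ap2a2 stood at 0.53 with 102835_at and 0.69 with 100492_at. Ap2a1 (0.94 ± 0.38), Ap2b1 (1.25 ± 0.53) and Ap2m1 (0.44 ± 0.23 and 0.01 ± 0.20) did not pass (adjusted p = 0.08, 0.10, 0.17 and 0.98). In AP-1, the beta subunit Ap1b1 gave 539.6, 444, 496, 659 and 492 with probe set 95704_at, against 322, 382 and 436, with no overlap (log2 0.47 ± 0.12, SE, limma, adjusted p = 0.0188). Ap1g1 did not differ detectably (-0.09 ± 0.12, adjusted p = 0.58). In AP-3, the small subunit Ap3s2 passed (0.75 ± 0.25, adjusted p = 0.0402) at low signals, 29.3 to 50.8 against 19.1 to 40.8 in wild-type mice. Every one of these signals lay below the median of its array. The call was lost with array class as a covariate (0.62, limma, adjusted p = 0.09) and with median centring (0.51, 0.14). The median of the 5 AP-3 probe sets was -0.28 (-0.52 after median centring).

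Among sorting nexins, Snx10, which acts on endosomes and was linked to bone resorption in humans, was lower. It gave 427, 279, 290.5, 253 and 517 in untreated alpha7 +/T mice, against 451, 576 and 758 as lowest, median and highest in wild-type mice. The 4 mice of 6 weeks lay below the wild-type range and the mouse of 8 weeks inside it. The log2 difference was -0.76 ± 0.16 (SE, limma, adjusted p = 0.0102), and -0.09 among mice of 7 weeks or older. Snx14, whose human gene is mutated in a form of cerebellar ataxia, gave 188, 171, 136, 117 and 209, against 182, 256 and 275, a difference of -0.62 ± 0.17 (adjusted p = 0.023). Snx2 passed with probe set 96331_at alone (-0.90 ± 0.27, adjusted p = 0.0307), and 96333_g_at gave 0.57 ± 0.52 (adjusted p = 0.44).

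The start regions of Rabggtb and Snx10, which kept their calls with array class, with age and with title prefix as covariates, are shown in the same format. The capitals in Snx10 mark its match to TGANTCA. The RefSeq table gives further starts for both genes, none of which held a match.
Rabggtb (chr3:153912917-153913216, minus strand): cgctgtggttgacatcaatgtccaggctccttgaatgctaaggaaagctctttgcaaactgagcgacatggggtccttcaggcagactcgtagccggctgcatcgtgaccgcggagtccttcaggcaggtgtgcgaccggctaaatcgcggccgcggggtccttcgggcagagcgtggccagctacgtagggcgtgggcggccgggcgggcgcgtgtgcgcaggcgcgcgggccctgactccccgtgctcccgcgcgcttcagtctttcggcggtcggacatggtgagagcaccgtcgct
Snx10 (chr6:51523834-51524133, plus strand): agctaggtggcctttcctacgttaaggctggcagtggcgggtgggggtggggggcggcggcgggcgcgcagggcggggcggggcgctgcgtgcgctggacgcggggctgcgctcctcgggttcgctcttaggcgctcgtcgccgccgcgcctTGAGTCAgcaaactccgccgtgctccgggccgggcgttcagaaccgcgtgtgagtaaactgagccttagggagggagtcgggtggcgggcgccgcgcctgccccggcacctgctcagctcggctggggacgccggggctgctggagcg

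Of the 4 retromer subunits 2 passed as lower, where 8.29% of all probe sets did, and 4 probe sets are too few to compare shares. Vps35 gave 846, 852, 613, 558 and 1365 in untreated alpha7 +/T mice, against 1071, 1236 and 1468 in wild-type mice, and the 4 mice of 6 weeks lay below the wild-type range (log2 -0.63 ± 0.17, SE, limma, adjusted p = 0.021). Vps29 gave 456, 426, 239, 415 and 752, against 589, 650.2 and 831 (-0.66 ± 0.20, adjusted p = 0.0311). Vps26b (-0.33 ± 0.19) and Vps26a (0.37 ± 0.24) did not pass (adjusted p = 0.20 and 0.26), and the median of the 4 retromer probe sets was -0.48 (-0.72 after median centring). Among mice of 7 weeks or older the sign turned, to 0.022 for Vps35 and 0.036 for Vps29. Both were also lower in low-ratio arrays (class differences of -0.49 and -0.40), and with array class as a covariate they stood at -0.44 and -0.50. Of the other Vps genes, Vps54 of the GARP tether, mutated in the wobbler mouse, was lower (log2 -0.75 ± 0.25, adjusted p = 0.0406), and Vps4b, an ATPase that takes ESCRT-III apart, also (-0.61 ± 0.21, adjusted p = 0.0458). Neither passed with array class as a covariate (-0.51 and -0.39, limma, adjusted p = 0.10 and 0.11) or with age. Their calls were lost in 8 and 13 of 28 fits that left out 1 mouse.

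Among Rab GTPases, Rab18, which acts at the endoplasmic reticulum and lipid droplets, gave 821, 777, 678, 648 and 1143 in untreated alpha7 +/T mice, against 1122, 1205 and 1501 in wild-type mice. Again only the mouse of 8 weeks reached the wild-type range (log2 -0.64 ± 0.17, SE, limma, adjusted p = 0.0217). Rab4b, a Rab of early and recycling endosomes, gave 330.01, 348, 479.9, 579 and 97.8, against 96.9, 104 and 183 (1.45 ± 0.43, adjusted p = 0.0295). It stood at 0.87 with array class as a covariate, at -0.18 among mice of 7 weeks or older, and did not pass with age (1.36, adjusted p = 0.06) or title prefix (1.33, 0.12). Rab12 (-0.59), Rab25 (0.77) and the opposite-strand transcript Rab26os (-1.36, between 5.05 and 64.0 signal units in untreated alpha7 +/T mice) also passed. None of Rab12, Rab25 and Rab26os passed with array class, with age or with title prefix as a covariate. The Rab25 call was lost in 15 of 28 fits that left out 1 mouse. The 33 Rab GTPase probe sets had a median of -0.10 (-0.34 after median centring), with 2 higher and 2 lower. Copb2, the beta prime subunit of COPI, was lower with 93340_f_at (-0.73 ± 0.21, adjusted p = 0.0283), whose values were 124, 62.5, 45.2, 69.1 and 111, against 106, 131 and 140.5. Its other probe set, 93341_r_at, stood at 0.05.

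The pattern across mice was shared by most of these probe sets. In 16 of the 19 the untreated alpha7 +/T mouse of 8 weeks lay inside the wild-type range (61.5% of the 1177 called probe sets of the array), and in 13 all 4 mice of 6 weeks lay outside it (63.4% of the 1177). Set against the 3 untreated wild-type mice of 6 weeks with the same title prefix LT, the 4 alpha7 +/T mice of 6 weeks gave 2 calls (Rabggtb and Rab4b, where 1.73% of all probe sets passed). In mice of 7 weeks or older, with 1 untreated alpha7 +/T mouse, the 19 differences had a median of 0.18 times their size in all arrays (0.38 times over the 1177), 4 turned their sign, and none passed (0.0544% of all passed). In the high-ratio arrays alone the median was 0.64 times the size (0.70 times over the 1177), and none passed (0.0408% of all). These mice are part of those that gave the calls, so a shared sign is no separate support. With array class as a covariate 9 of 105 members passed (9.1% of all) and the 19 differences had a median of 0.70 times their size. With age 9 passed (7.63%), at a median of 0.95 times the size, and with title prefix 3, namely Rabggtb, Ap2a2 and Snx10 (1.39%), at 0.96 times. Each covariate was fitted with the same effect in all groups. Age, array class and title prefix moved with this result, and their part was not tested.

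**Figure D3:**
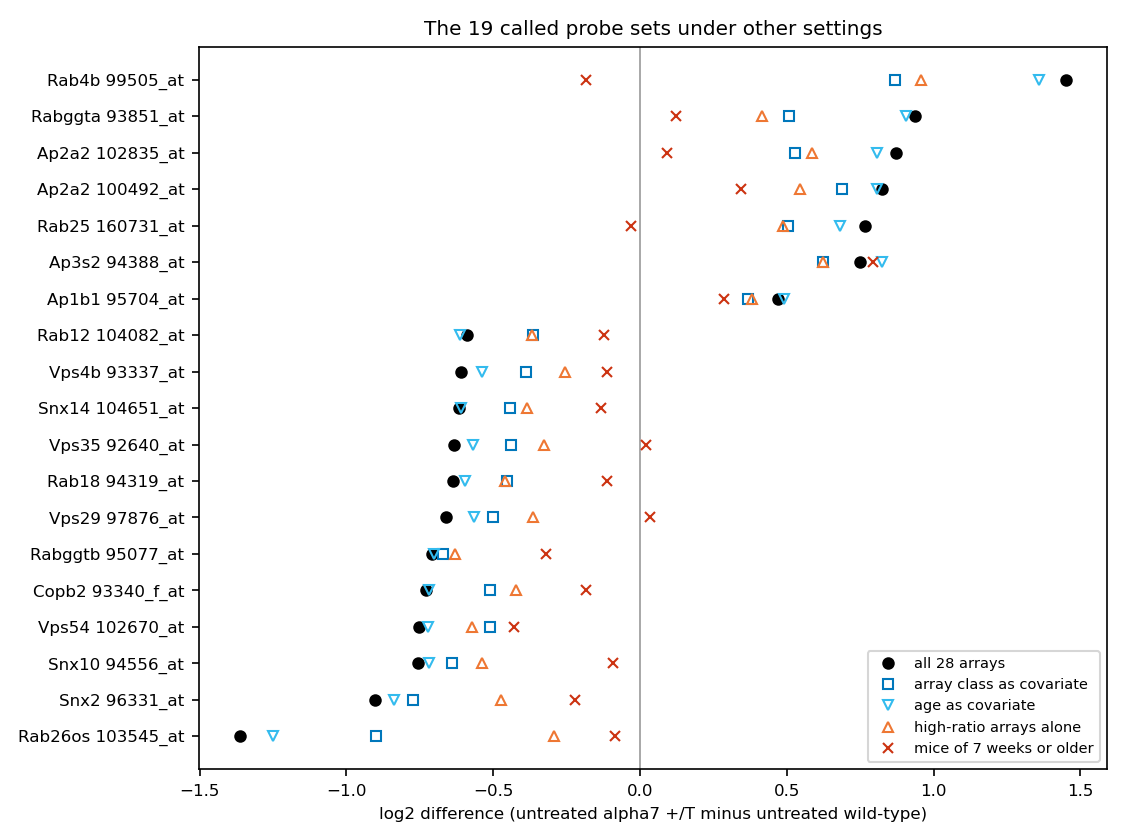
Log2 difference (untreated alpha7 +/T minus untreated wild-type mice) of the 19 called probe sets in all 28 arrays and under 4 other settings. Filled circles are the values in all arrays. In the high-ratio arrays alone (orange) the differences are smaller than in all arrays, and in mice of 7 weeks or older (red crosses) 4 cross 0.

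No member passed in the other comparisons of genotypes. Untreated beta4 null against wild-type mice gave 0 of 105 in limma, where 0.0136% of all probe sets passed, and 22 at an unadjusted p under 0.05 (12.9% of all). Snx12 (102320_at) stood at 1.71 ± 0.43 (adjusted p = 0.34). Its values were 118, 130.4, 62.4, 122 and 58.8 in beta4 null mice, against 16.1, 23.1 and 58.8 in wild-type mice. The lowest beta4 null mouse and the highest wild-type mouse nearly coincided. Ap3s2 was 0.76 ± 0.25 there, Rab34 0.44 ± 0.14 and Vps26a 0.73 ± 0.24, none of which passed. Vps26a was 0.66 ± 0.13 higher in low-ratio arrays, which 2 of the 5 untreated beta4 null mice had and no wild-type mouse. In 1 of those 2 mice Ap3s2 gave 62.2, against 36.0 to 41.9 in the other untreated beta4 null mice. The part of array class was not tested. Untreated alpha7 +/T against untreated beta4 null mice gave 0 members, where 2.48% of all passed, and 17 at an unadjusted p under 0.05 (20.4% of all). The smallest p belonged to Snx2 (96331_at, -0.96 ± 0.29, adjusted p = 0.06) and Ap2a2 (0.50 ± 0.16, 0.08). With array class as a covariate 13 members passed there (12.4%, where 12.8% of all did). Among seized mice, alpha7 +/T against wild-type gave 0 members, where 0% of all passed, and 14 at an unadjusted p under 0.05 (12% of all). Beta4 null against wild-type gave 0 (0.0136% of all) and 2 unadjusted (4.42%), and alpha7 +/T against beta4 null gave 0 (0.068% of all) and 3 unadjusted (6.14%). For Rabggtb the 5 seized alpha7 +/T mice gave 215, 192, 225, 249.7 and 205, against 194, 234 and 271 in seized wild-type mice.

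More members passed between the array classes than in any comparison of seizure or genotype. Between low-ratio and high-ratio arrays of the same group, 69 of 105 members passed (65.7%, where 52.1% of all probe sets did, limma), 34 of them higher in the low-ratio arrays (32.4%, 26.7% of all). The differences (low-ratio minus high-ratio arrays) ran from -1.39 ± 0.37 for Rab35 to 3.23 ± 0.25 for Rab7 with probe set 95785_s_at. Rab7 directs late endosomes to lysosomes. That probe set gave 604, 866, 526, 61.1 and 38.3 in seized alpha7 +/T mice, the first 3 on low-ratio arrays, and 51.5 to 71.3 in untreated wild-type mice, while 99587_at of the same gene had a class difference of 0.11 ± 0.14. The dim Ap1g1 probe set 92288_at differed by 3.07 ± 0.41, beside 0.23 ± 0.08 for 103242_at. The Snx2 probe set 96333_g_at differed by 1.87 ± 0.18, beside -0.32 ± 0.20 for 96331_at. Other members far higher in low-ratio arrays were Ap2b1 (1.78), Snx12 (102319_at, 1.47), Rab4b (1.46), Copg1 (94427_at, 1.34) and Ap2a1 (1.27), and Rab26os (-1.16), Rab5if (-0.74), Rab21 (-0.72) and Rab14 (-0.72) were lower.

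Of the 18 genes with more than 1 probe set past the filter, 5 had probe sets whose class differences lay over 1 log2 unit apart (Rab7, Ap1g1, Snx2, Rab10 and Snx17), and 7 had them within 0.5. The signs of the probe sets of a gene matched in 13 of 18 genes for the alpha7 +/T seizure comparison, in 11 for alpha7 +/T against wild-type mice before seizure and in 8 for the beta4 null seizure comparison. Ap2a2 was the only one of the 18 with both probe sets called in that genotype comparison.

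**Figure D4:**
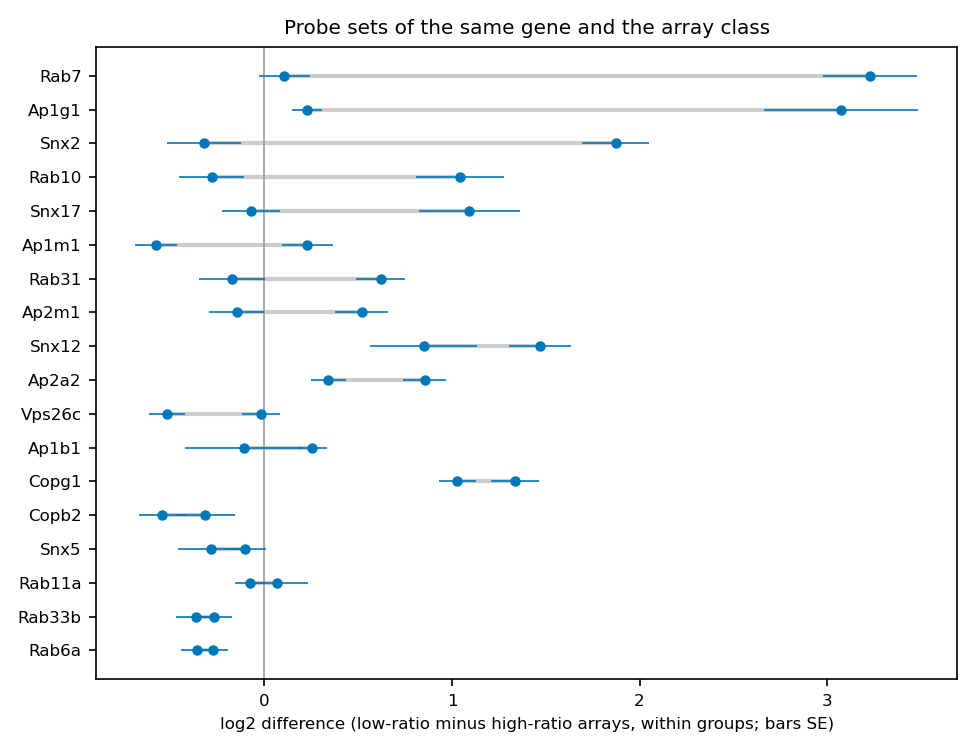
Log2 difference between low-ratio and high-ratio arrays within groups, with its SE, for the probe sets of the 18 genes that had more than 1 past the filter. A grey line joins probe sets of the same gene. Those of Rab7, Ap1g1 and Snx2 lie farthest apart, and those of Rab6a and Rab33b almost coincide.

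Other genes of membrane traffic, which the symbol rule did not reach, were read from a list of 136 genes, of which 91 were tested with 108 probe sets. After seizure in alpha7 +/T mice 5 of these probe sets rose and 2 fell (6.48%, where 2.8% of all passed). Cltc, the clathrin heavy chain (log2 0.50 ± 0.10), Dnm1l, a mitochondrial fission dynamin (0.61 ± 0.15), Rabgap1l, a GTPase-activating protein for Rabs (0.72 ± 0.19), Napb, a SNARE disassembly factor (0.94 ± 0.23), and the endosomal SNARE Stx8 (1.54 ± 0.38) rose. Dnm1, the dynamin of synaptic vesicle endocytosis (-0.64 ± 0.16), and Bin1, which bends membranes with it (-0.52 ± 0.12), fell. Untreated alpha7 +/T against wild-type mice gave 7 higher and 10 lower (15.7%, where 16% of all passed), with Cltc, Dnm1l, Eps15, Eea1, Stam, Vamp4, Stx8, Rabgap1l, Rin2 and Evi5 lower and Bin1, Hip1r, Hspa8, Hgs, Arf5, Rabac1 and Gosr1 higher. Cltc, Dnm1l, Rabgap1l and Stx8, which rose after seizure, were thus lower before it, and Bin1, which fell, was higher. Both comparisons use the same untreated alpha7 +/T mice, 4 of them of 6 weeks. The part of age and array class in these list results was not tested. No probe set of the list passed after seizure in wild-type mice, in beta4 null mice or averaged over genotypes (0.0544%, 0.0136% and 0.408% of all passed). In alpha7 +/T mice endothelial markers moved too, with 2 of 6 probe sets lower after seizure (Cldn5 and Eng), where 1.09% of all passed as lower. All 8 probe sets of the 6 genes summed to 728 to 1000.4 in seized mice and 1149 to 1896 in untreated mice. The sum was 854 to 920.3 in seized and 945 to 1543 in untreated wild-type mice, without overlap and with no probe set called, and 724 to 1177 in seized and 850.1 to 1198 in untreated beta4 null mice. Their part in the adaptor and retromer results was not tested.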

How the data were processed

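Per the submitters' processing notes the authors used MAS5 (no version given), and what they deposited is the linear signal intensity of every probe set. The values themselves show a common scaling: the mean after trimming 2% at each end lay between 150.08 and 150.10 on every array. Array medians ran from 43.6 to 61.1. Detection calls were not used here. The number of arrays limits the precision. After 66 control sets were dropped and the filter on low signal applied, log2 values entered limma (version 3.58.1, R 4.3.3; linear model with empirical Bayes and a variance trend). All 28 arrays shared 1 fit with a mean per group, for 6 groups taken from the labels. Benjamini-Hochberg adjustment covered the 7350 kept probe sets, and tests were two-sided with a threshold of 0.05. The script was tested on simulated data.

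Members and lists were chosen with earlier results of these data known. Probe sets named with values were called ones (up to 8 per comparison, smallest adjusted p first; others called were named after their values were seen), the 3 with the highest and the 1 with the lowest signal and the 3 with the smallest p in the average seizure comparison of each family, genes with several probe sets, and the members most like each called seizure member. Values of Rab7, Ap2a1, Ap2b1 and the list genes were also picked after they were seen. Sequences are RefSeq's for GRCm38.p6, matched by symbol for 85 of 99 genes. Alternatives were quantile normalization, median centring, 2 other filters, covariates for array class, age and title prefix, fits within array classes or ages, no variance trend, and each mouse left out in turn. Array class with age as covariates and the comparison of 6-week mice with the LT title prefix were added after the data were seen.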

Additional observations from a re-analysis of the deposited data

Results flagged for a closer look

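In 100 checks of called probe sets within groups of 4 to 6 mice, 2 mice stood farther from the rest of their group than Dixon's critical value allows, and chance alone would give about 1 in 20. Snx14 had a signal of 182 in untreated wild-type mouse 4, against 251 to 275 in the other untreated wild-type mice. Ap3s2 had a signal of 62.2 in untreated beta4 null mouse 2, a low-ratio array, against 36.0 to 41.9 in the other untreated beta4 null mice.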

How the results depend on the processing

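After seizure in alpha7 +/T mice the 3 member calls (2.8% of all probe sets passed) became 1 with median centring (1.82%), 0 without the filter (1.28%), 16 with array class (13.3%), 0 with age (0.163%), 0 in high-ratio (0.177%) and 11 in low-ratio arrays alone (9.28%), 0 in mice of 7 weeks or older (0.109%) and 1 without the variance trend (2.35%). Leaving out 1 mouse gave 0 to 10 (0 without seized wild-type mouse 2 or any of untreated alpha7 +/T mice 1 to 4, 10 without untreated alpha7 +/T mouse 5, where 9.12% of all passed). Untreated alpha7 +/T against wild-type mice gave 19 (16% of all), 13 without the filter (7.25%; 12 of the 19 stayed called), 9 with array class (9.1%), 9 with age (7.63%), 3 with title prefix (1.39%), 6 with array class and age (6.1%), 0 in high-ratio arrays (0.0408%), 0 in mice of 7 weeks or older (0.0544%) and 2 among 6-week mice of title prefix LT (1.73%), and 2 to 28 with 1 mouse left out (2 without alpha7 +/T mouse 3, 0.816% of all; 3 without mouse 4, 1.96%; 28 without mouse 5, 27.8%; 8 without untreated wild-type mouse 3, 6.97%). Untreated alpha7 +/T against beta4 null mice gave 0 (2.48% of all), 13 with array class (12.8%), 9 in low-ratio arrays (8.12%) and 0 to 11 with 1 mouse left out (11 without alpha7 +/T mouse 5, 11.5%). The cause was not tested. The other 8 comparisons gave 0 member calls in every fit run, leave-outs included. In mice of 7 weeks or older the sign turned for Vps35 after seizure (-0.12), and for Rab25 (-0.030), Vps35 (0.022), Vps29 (0.036) and Rab4b (-0.18) in untreated mice. No paired analysis was possible because the labels give no replicate numbers that the groups share.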
